A study of Mus musculus with 61 samples.

Results

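Axons that are damaged in the optic nerve signal back to the retinal ganglion cell body through a kinase relay and a set of stress-induced transcription factors. The 7 genes described here belong to that response and were taken as a fixed list: Map3k12, Mapk8, Mapk10, Jun, Atf3, Atf4 and Ddit3. All 7 were among the 15149 named genes of the deposited table, which holds 61 RNA-seq libraries of cells sorted from mouse retina.

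The libraries fall into 5 groups. They comprise 7 libraries of 9-month DBA/2J mice given nicotinamide at 500 mg per kg per day, 25 of 9-month DBA/2J mice on water, 9 of 9-month D2-Gpnmb+ mice on water, 10 of 4-month DBA/2J mice on water and 10 of 4-month D2-Gpnmb+ mice on water. DBA/2J mice carry mutations in Gpnmb and Tyrp1, develop iris disease and high intraocular pressure with age, and are a common model of glaucoma; D2-Gpnmb+ mice are the matching strain with a functional Gpnmb and no such pressure rise. Nicotinamide is a precursor of NAD+. Per the labels' protocols, cells positive for Thy1.2 and negative for Cd11b, Cd11c, Cd34, Cd45.2 and GFAP were collected, and every eye had been scored as free of glaucomatous axon degeneration, so the comparisons address gene expression ahead of visible nerve damage. Sex is not given by library, and the labels do not say whether libraries are separate mice, so p-values measure the spread between libraries, which may be technical.

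Map3k12 encodes dual leucine zipper kinase (DLK), an upstream sensor of axon injury that activates the JNK kinases through an intermediate kinase layer. Mapk8 and Mapk10 encode JNK1 and JNK3; JNK3 is the JNK form largely restricted to neurons. JNK phosphorylates the transcription factor encoded by Jun, which is induced in injured ganglion cells and takes part in their death. Atf3 encodes a partner of Jun that is a classical marker of axotomised neurons. Atf4 is the main effector of the integrated stress response and is controlled to a large degree at translation, and Ddit3 encodes CHOP, one of its targets. JNK activity, phosphorylation and translation are not seen in RNA levels.

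The promoters of the stress-induced factors are shown because they hold the short sites through which these proteins are known to act on each other's genes and on their own. Each sequence is the 250 bases before the RefSeq start in GRCm38.p6, written 5′ to 3′ on the gene's own strand; the Jun window is chr4:95052223-95052472 (minus strand), the Atf3 window chr1:191183334-191183583 (minus strand) and the Ddit3 window chr10:127290543-127290792 (plus strand). Capitals mark matches to the motifs searched.
Jun: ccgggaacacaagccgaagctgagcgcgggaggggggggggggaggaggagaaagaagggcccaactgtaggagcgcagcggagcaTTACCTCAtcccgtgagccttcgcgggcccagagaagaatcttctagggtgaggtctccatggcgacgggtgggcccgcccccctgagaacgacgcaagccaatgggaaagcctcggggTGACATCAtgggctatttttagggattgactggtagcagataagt
Atf3: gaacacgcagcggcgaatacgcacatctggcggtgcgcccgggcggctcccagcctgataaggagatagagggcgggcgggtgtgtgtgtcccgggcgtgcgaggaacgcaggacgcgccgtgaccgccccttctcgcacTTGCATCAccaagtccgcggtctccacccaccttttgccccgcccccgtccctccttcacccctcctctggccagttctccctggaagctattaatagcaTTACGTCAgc
Ddit3: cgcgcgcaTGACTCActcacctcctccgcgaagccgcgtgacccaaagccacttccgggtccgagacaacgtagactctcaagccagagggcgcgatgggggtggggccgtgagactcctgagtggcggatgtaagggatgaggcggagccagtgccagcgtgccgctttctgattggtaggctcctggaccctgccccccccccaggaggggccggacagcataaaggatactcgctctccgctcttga

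The Jun promoter held the variant AP-1 site TGACATCA 45 bases before the start and TTACCTCA 164 bases before it. The Atf3 promoter held TTACGTCA 10 bases and TTGCATCA 110 bases before its start, and the Ddit3 promoter held the AP-1 site TGACTCA 242 bases before its start. The Atf3 window lies inside the annotated gene (chr1:191170296-191218039, minus strand), and the bases before its outermost annotated start were not searched. Of the other members, the first promoter of Mapk10 held the CRE TGACGTCA 29 bases before its start, and none of the 6 motifs was found in these windows of Map3k12, Mapk8 or Atf4. On either strand, TGACTCA occurred in 4.46% of 32851 RefSeq promoter windows of this length, TGACATCA in 2.93%, TGACGTCA in 1.55%, TTGCATCA in 0.791%, TTACCTCA in 0.728% and TTACGTCA in 0.447%. A match describes these letters only.

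Values are normalised read counts, meaning reads of a gene divided by a size for each library, as deposited; the reads behind them came to 5133114 to 19501444 per library (median 9730486). The 17 ganglion cell markers in the table were detected, with summed values of 390 to 599 after nicotinamide, 140 to 479 in 9-month DBA/2J, 147 to 488 in 9-month D2-Gpnmb+, 336 to 724 in 4-month DBA/2J and 307 to 438 in 4-month D2-Gpnmb+. Pou4f2 and Pou4f3, which define this cell type, were not among the genes listed. The 13 rod markers, all in the table, were also detected in every library, with a summed value of 731 to 73163 (median 7723). In RNA from whole sorted pools, fewer cells of a type and less RNA per cell cannot be told apart.

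The columns of the table run in 3 stretches, called blocks here, whose sizes of 10, 18 and 33 libraries match 3 series of sample numbers in the labels; the labels do not say what sets them apart. Block 3 holds all 7 nicotinamide and all 20 4-month libraries but only 3 of 25 libraries of 9-month DBA/2J and 3 of 9 of 9-month D2-Gpnmb+. Age and nicotinamide therefore go together with block, and each such result is given over all libraries and within block 3. Among the 3 DBA/2J libraries of 9 months in block 3, library 26 stands apart, with the fewest reads of all (5133114) and the lowest summed value of 12 Müller glia and astrocyte markers (383).

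Per kilobase of merged exons, Atf4 had the highest mean normalised count of the 7 genes over all libraries (35.4), followed by Mapk8 (11.9) and Mapk10 (11.1). Jun (6.58), Map3k12 (6.02) and Ddit3 (4.69) lay below, and Atf3 was lowest (1.55). The genes lie at chr15:102497646-102517064 (Map3k12), chr14:33377898-33447158 (Mapk8), chr5:102907948-103211334 (Mapk10), chr4:95049034-95052222 (Jun), chr1:191170296-191218039 (Atf3), chr15:80255184-80257541 (Atf4) and chr10:127290774-127296288 (Ddit3) in mm10. All but Atf4 overlap another annotated gene, including Junos antisense to Jun and Mars antisense to Ddit3, and the strand setting of the counting is not given in the sources used here.

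**Figure D1:**
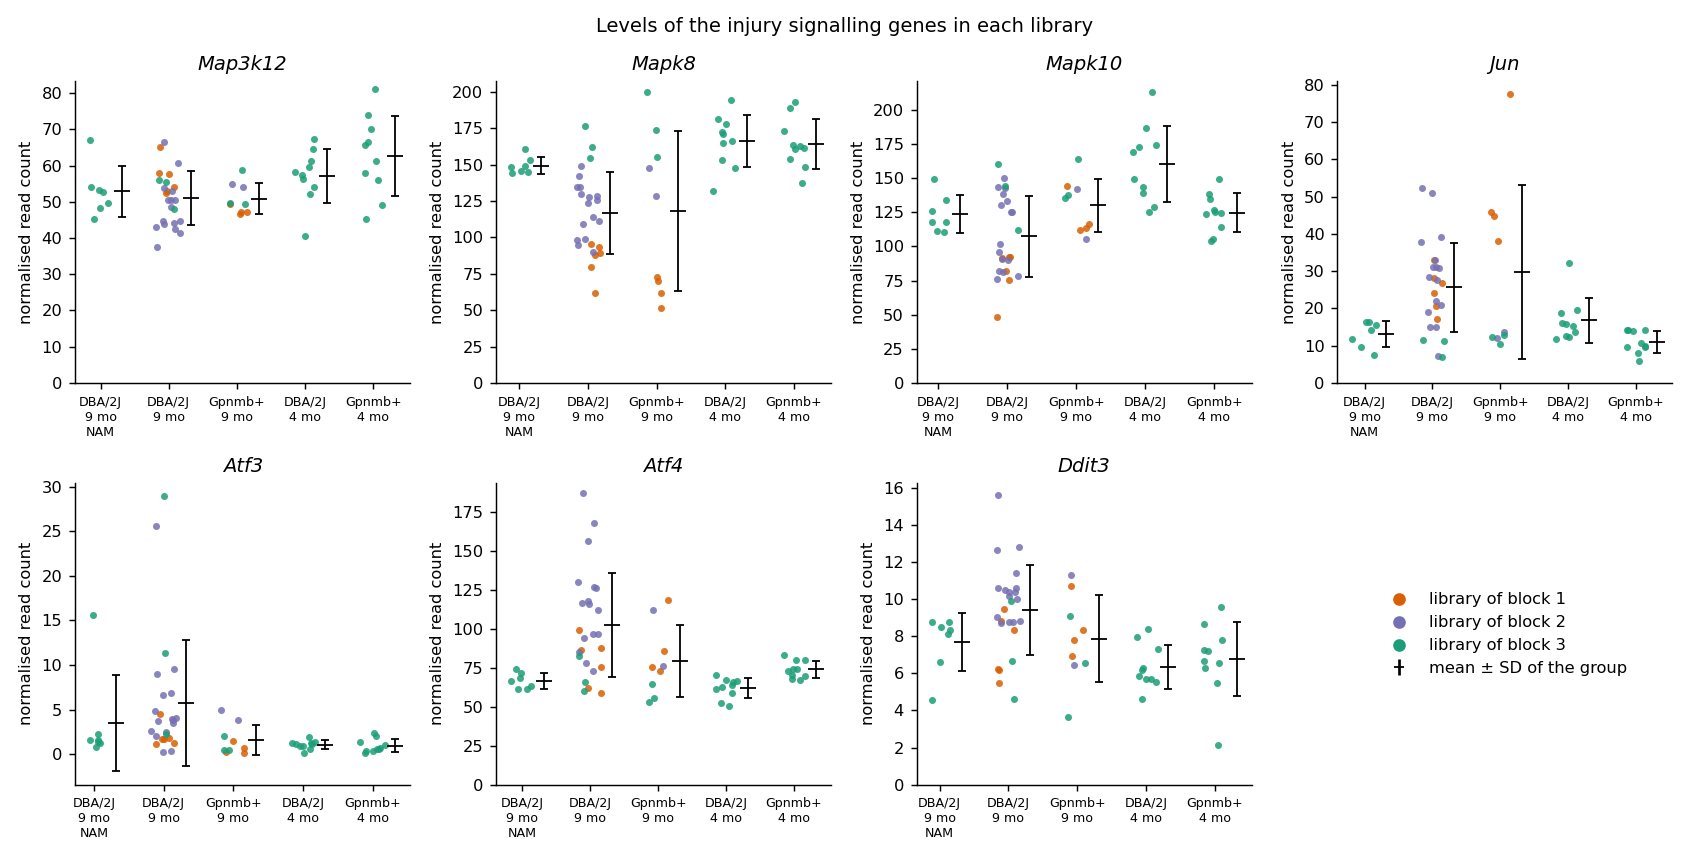
Normalised read count of the 7 genes in each library (points, coloured by block) with the group mean ± SD, for nicotinamide-treated 9-month DBA/2J, 9-month DBA/2J, 9-month D2-Gpnmb+, 4-month DBA/2J and 4-month D2-Gpnmb+ mice. Atf3 is near 1 in both 4-month groups and reaches 28.9 in 9-month DBA/2J, and Map3k12 lies between 37.5 and 81.1 in every library.

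Map3k12, the DLK gene at the head of the relay, differed little between groups. It averaged 52.9 ± 7.01 after nicotinamide, 51.03 ± 7.37 in 9-month DBA/2J, 50.9 ± 4.22 in 9-month D2-Gpnmb+, 57.2 ± 7.40 in 4-month DBA/2J and 62.7 ± 11.04 in 4-month D2-Gpnmb+ (SD; n = 7, 25, 9, 10 and 10). Every neighbouring pair in that order of levels lay within 1 SD of each other. No comparison passed the test for Map3k12. With age its log2 fold change was -0.16 ± 0.09 in DBA/2J (SE, adjusted p = 0.182) and -0.28 ± 0.11 in D2-Gpnmb+ (adjusted p = 0.105), and within block 3 the DBA/2J value was -0.09 ± 0.13. Nicotinamide gave 0.055 ± 0.10 over all libraries (adjusted p = 0.751). In block 1 at 9 months, DBA/2J libraries (mean 56.7 ± 4.72) did not overlap D2-Gpnmb+ libraries (47.6 ± 1.21). The log2 fold change there was 0.24 and did not pass (adjusted p = 0.383), where 12.3% of genes did. For this and later cases, how many of all genes lacked overlap between the same libraries was not counted. Here and below, fold changes are on the scale log2(value + 1), from limma with Benjamini-Hochberg adjustment over all genes tested.

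Mapk8 and Mapk10 were lower in 9-month DBA/2J than in 4-month DBA/2J over all libraries. Mapk9, a further JNK gene outside the fixed list, did not pass there (-0.099 ± 0.095, adjusted p = 0.474). Mapk8 (JNK1) averaged 149 ± 5.96 after nicotinamide, 116 ± 28.1 in 9-month DBA/2J, 118 ± 54.9 in 9-month D2-Gpnmb+, 166 ± 17.9 in 4-month DBA/2J and 164 ± 17.1 in 4-month D2-Gpnmb+. Between 9-month and 4-month DBA/2J it fell by 0.54 ± 0.12 on the log2 scale (adjusted p = 0.00149). The 9-month libraries ran from 61.6 to 177 (median 114) and 18 of 25 lay below the lowest 4-month library, while the 4-month libraries ran from 132 to 194 (median 168).

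The Mapk8 difference followed the blocks. Within 9-month DBA/2J it averaged 84.5 ± 12.4 in block 1 (n = 6), 119 ± 17.8 in block 2 (n = 16) and 164 ± 11.3 in block 3 (n = 3), and within 9-month D2-Gpnmb+ 64.1 ± 9.48 in block 1 (n = 4) and 176 ± 22.5 in block 3 (n = 3). The 3 DBA/2J libraries of 9 months in block 3 had 154.5, 161.9 and 176.7, inside the 4-month range, and the age difference there was -0.01 ± 0.11 (adjusted p = 0.99). Over all libraries, 9-month D2-Gpnmb+ differed from 4-month D2-Gpnmb+ by -0.62 ± 0.22 in Mapk8, which missed the threshold (adjusted p = 0.0878), and by 0.10 ± 0.12 within block 3. Cell markers differed too between block 1 of 9-month DBA/2J, where Mapk8 was lowest, and 4-month DBA/2J. The ganglion cell sum was 140 to 254 there and 336 to 724 at 4 months, the endothelial and pericyte sum (9 markers) 612 to 1208 and 125 to 474, and the Müller glia and astrocyte sum 4194 to 8961 and 1370 to 4740. Their part in the Mapk8 result was not tested.

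Mapk10 (JNK3) averaged 124 ± 14.1 after nicotinamide, 107 ± 29.6 in 9-month DBA/2J, 130.03 ± 19.2 in 9-month D2-Gpnmb+, 160.2 ± 27.8 in 4-month DBA/2J and 125 ± 14.3 in 4-month D2-Gpnmb+. It fell by 0.61 ± 0.14 with age in DBA/2J over all libraries (adjusted p = 0.00186), with 16 of 25 libraries of 9 months below the lowest of 4 months. Within block 3 the 9-month DBA/2J libraries had 112.3, 144.1 and 160.0 against 125 to 213 (median 159) at 4 months, overlapping in all but library 26, and the difference was -0.20 ± 0.15 (adjusted p = 0.683). In D2-Gpnmb+ the age value was 0.06 ± 0.10 over all libraries and 0.23 ± 0.13 within block 3. The ganglion cell sum was 140 to 479 in 9-month DBA/2J (276 to 479 within block 3) and 336 to 724 in 4-month DBA/2J, and its part in the result was not tested. The difference between the strains in their age values, DBA/2J minus D2-Gpnmb+, was -0.67 ± 0.19 when all libraries were used (adjusted p = 0.0875), and in block 3 it was -0.43 ± 0.19 (adjusted p = 0.56), so a strain difference in age response was not shown.

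At 4 months, where all 20 libraries are in block 3, Mapk10 was the member with the lowest adjusted p between the strains. DBA/2J had 125 to 213 (median 159) and D2-Gpnmb+ 104 to 149 (median 125), and 5 of 10 DBA/2J libraries lay above the highest D2-Gpnmb+ library. The log2 fold change was 0.35 ± 0.09 (adjusted p = 0.097). The 17 summed ganglion cell markers moved with it, at a median of 538 in DBA/2J and 372 in D2-Gpnmb+. The summed amacrine and horizontal cell markers ran from 138 to 1179 in DBA/2J and from 170 to 472 in D2-Gpnmb+. The summed cone markers ran from 1111 to 2240 in DBA/2J and from 1757 to 2992 in D2-Gpnmb+. The part of these markers in the Mapk10 result was not tested. Correlations were taken across all 61 libraries after removal of the mean of each group within each block. Mapk10 correlated with the summed ganglion cell markers (Pearson r = 0.71) and inversely with the summed rod markers (r = -0.61). It also correlated with the summed bipolar cell markers (r = 0.50) and amacrine and horizontal cell markers (r = 0.42). The remaining cell type sums gave -0.09 to 0.27. These libraries share their sort and scaling, so the values are descriptive.

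Jun had its highest levels in blocks 1 and 2. It averaged 13.1 ± 3.45 after nicotinamide, 25.7 ± 11.9 in 9-month DBA/2J, 29.7 ± 23.4 in 9-month D2-Gpnmb+, 16.8 ± 5.98 in 4-month DBA/2J and 11.1 ± 2.96 in 4-month D2-Gpnmb+. The 9-month DBA/2J libraries ran from 6.98 to 52.4 (median 26.7) and the 4-month ones from 11.9 to 32.1 (median 15.6), and the ranges overlap. The age value in DBA/2J was 0.48 ± 0.23 over all libraries and did not pass (adjusted p = 0.126). Within block 3 it had the opposite sign, -0.68 ± 0.24 (adjusted p = 0.269): the 9-month DBA/2J libraries had 6.98, 11.3 and 11.5, all below the lowest 4-month library at 11.9. The summed immediate early genes of the same libraries did not follow Jun there, at 239 to 279.8 in 9-month and 116 to 255 in 4-month DBA/2J.

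In D2-Gpnmb+, the strain without the disease, the age value of Jun was 1.04 ± 0.33 over all libraries (adjusted p = 0.0794; it passed in 4 of 19 fits that left out 1 library) and 0.13 ± 0.23 within block 3, where the 9-month libraries had 10.4, 12.2 and 12.8 against 5.91 to 14.3 (median 10.4) at 4 months. Between strains at 4 months Jun was 0.55 ± 0.17 in DBA/2J over D2-Gpnmb+ (adjusted p = 0.137), with 6 of 10 DBA/2J libraries above the highest D2-Gpnmb+ library.

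Between strains at 9 months, Jun had opposite directions in different blocks. In block 1, DBA/2J libraries had 17.2, 20.8, 24.03, 26.7, 28.3 and 33.0, and D2-Gpnmb+ libraries had 38.1, 44.8, 45.9 and 77.5. Jun fell by 0.99 ± 0.22 in DBA/2J relative to D2-Gpnmb+ (adjusted p = 0.00412), where 12.3% of genes passed. In block 2, DBA/2J libraries ran from 7.31 to 52.4 (median 29.7) and the 2 D2-Gpnmb+ libraries had 11.95 and 13.7, a difference of 0.98 ± 0.44 (adjusted p = 0.892). In block 3 the difference was -0.26 ± 0.27 (adjusted p = 0.896), and over all libraries it was -0.00 ± 0.30 (adjusted p = 0.997). The 12 Müller glia and astrocyte markers, all in the table, moved with Jun in block 1, with a summed value of 4194 to 8961 in the DBA/2J libraries and 12157 to 17143 in the D2-Gpnmb+ libraries. The 13 immediate early genes in the table, a list without Jun, summed to 217 to 370.4 in DBA/2J libraries of block 1, against 375 to 682 in D2-Gpnmb+ libraries. Photoreceptor markers ran the other way in block 1: the 13 rod markers summed to 7372 to 10361 in DBA/2J libraries and 731 to 7244 in D2-Gpnmb+ libraries, and the 9 cone markers to 1439 to 2129 against 465 to 931, with no overlap for either. The 9 endothelial and pericyte markers summed to 612 to 1208 in DBA/2J libraries, against 1169 to 1550.2 in D2-Gpnmb+ libraries. Across the 61 libraries, after removal of group and block means, Jun gave r = -0.0007 with the Müller glia and astrocyte sum. With the immediate early sum it gave 0.51, and the remaining cell type sums gave -0.22 to 0.23. The part of these markers in the result was not tested.

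**Figure D2:**
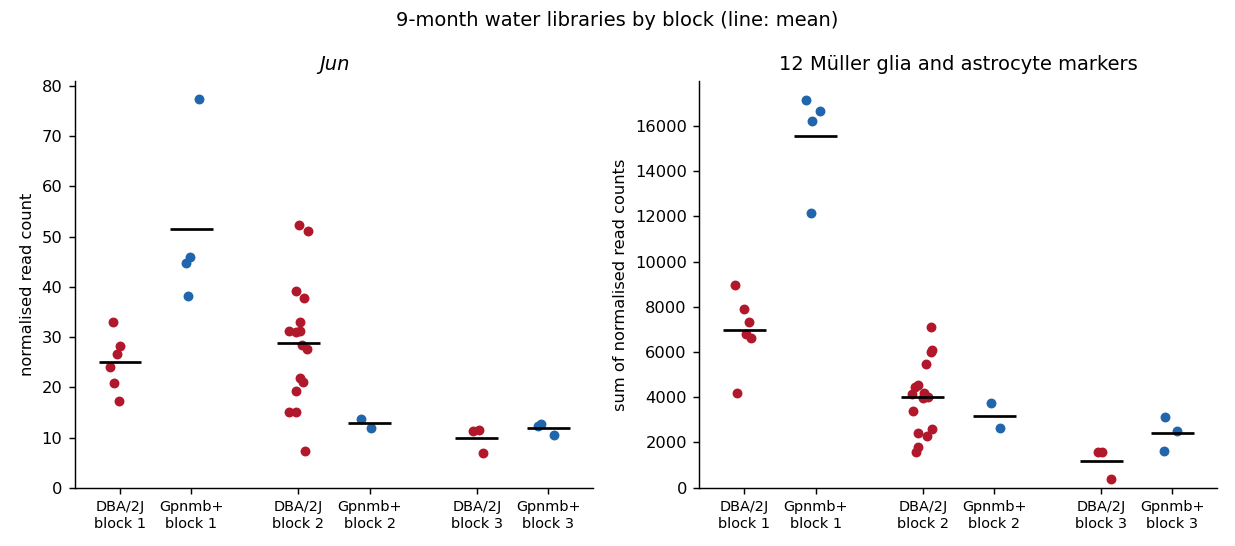
Normalised read count of Jun and summed normalised count of 12 Müller glia and astrocyte markers in the 9-month water libraries, by block, with DBA/2J left of D2-Gpnmb+. In block 1 both quantities are lower in every DBA/2J library than in every D2-Gpnmb+ library, while in block 2 the D2-Gpnmb+ libraries have 11.95 and 13.7 of Jun within the DBA/2J range.

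Atf3 was the member with the largest age value in DBA/2J. It was scarce in the sorted cells at 4 months: 0.132 to 1.99 (median 1.13) in 4-month DBA/2J, from 1 to 19 reads a library, and 0.194 to 2.36 (median 0.697) in 4-month D2-Gpnmb+. In 9-month DBA/2J it ran from 0.302 to 28.9 (median 3.71), and 18 of 25 libraries exceeded the highest 4-month DBA/2J library. In block 1 the 9-month DBA/2J libraries had 1.14, 1.22, 1.74, 1.77, 1.87 and 4.51 (library 3). All of these but library 3 lay below the 4-month DBA/2J maximum. Those of block 2 ran from 0.302 to 25.6 and those of block 3 from 2.32 to 28.9. The 9-month D2-Gpnmb+ libraries had 0.169 to 4.94 (median 0.690), and the nicotinamide libraries 0.867 to 15.6 (median 1.57). Group means were 3.51 ± 5.36 after nicotinamide, 5.77 ± 7.08 in 9-month DBA/2J, 1.60 ± 1.71 in 9-month D2-Gpnmb+, 1.08 ± 0.493 in 4-month DBA/2J and 0.976 ± 0.732 in 4-month D2-Gpnmb+. The SD exceeded the mean in all 3 groups of 9 months, and each neighbouring pair of means in order of level lay within the larger of their SDs.

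With age in DBA/2J, Atf3 rose by 1.26 ± 0.35 on the log2 scale over all libraries (adjusted p = 0.00904), and by 2.38 in edgeR on the recovered reads. Within block 3 it rose by 2.40 ± 0.44 (adjusted p = 0.0229), on values of 2.32 (22 reads), 11.3 (112 reads) and 28.9 (149 reads) in libraries 27, 28 and 26; each was above the 4-month maximum of 1.99. The block 3 call rests on few libraries: without library 26 it was 1.66 (adjusted p = 0.257), without library 28 it was 2.30 (adjusted p = 0.108), and without library 27 it was 3.25 (adjusted p = 6.81e-05). Of the markers of other cells, the 12 microglia and macrophage genes, all in the table, summed to 7.41 to 261.6 in 9-month DBA/2J of block 2 and to 1.90 to 8.27 over block 3, where 9-month DBA/2J had 2.33 to 6.59 and 4-month DBA/2J 2.14 to 6.58. In the 9-month DBA/2J libraries of block 3, 5 of the 12 genes were at 0 (Tmem119, Aif1, C1qa, C1qc and Tyrobp) and 7 were not. Across the 61 libraries, after removal of group and block means, Atf3 correlated with the microglia and macrophage sum (r = 0.37). With the Müller glia and astrocyte sum it gave r = -0.40, and the remaining cell type sums gave -0.25 to -0.01. The part of microglial or Müller glial RNA in the Atf3 results was not tested.

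In D2-Gpnmb+ the age value of Atf3 within block 3 was 0.03 ± 0.33, and over all libraries Atf3 was not tested there because too few libraries reached 1. The difference between strains in the age value was 1.02 ± 0.51 when all libraries were used (adjusted p = 0.39), and in block 3 it was 2.37 ± 0.56 (adjusted p = 0.135). Of 6 block 3 fits that each left out 1 library of 9 months, 1 passed (without library 27, 3.22, adjusted p = 0.000263) and 5 did not, with values down to 1.63 without library 26 (adjusted p = 0.9987). At 9 months DBA/2J exceeded D2-Gpnmb+ by 1.13 ± 0.39 over all libraries (adjusted p = 0.191), by 0.88 ± 0.37 in block 1 (adjusted p = 0.134) and by 2.49 ± 0.71 in block 3 (adjusted p = 0.704), while block 2 gave -0.08. Of 6 such fits of the block 3 value, 1 passed (without library 27, 3.33, adjusted p = 0.0157) and 5 did not, with values down to 1.75 without library 26 (adjusted p = 0.939). At 4 months the strain value was 0.12 ± 0.21 (adjusted p = 0.868).

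Atf4 and Ddit3 were both higher in 9-month than in 4-month DBA/2J over all libraries. Atf4 averaged 66.7 ± 5.09 after nicotinamide, 102 ± 33.6 in 9-month DBA/2J, 79.3 ± 22.8 in 9-month D2-Gpnmb+, 62.0 ± 6.32 in 4-month DBA/2J and 74.0 ± 5.55 in 4-month D2-Gpnmb+. With age in DBA/2J it rose by 0.65 ± 0.14 (adjusted p = 0.00146), with 58.6 to 187 (median 96.3) at 9 months, 50.7 to 70.2 (median 63.1) at 4 months and 21 of 25 libraries of 9 months above the 4-month maximum. Ddit3 averaged 7.67 ± 1.57 after nicotinamide, 9.40 ± 2.42 in 9-month DBA/2J, 7.86 ± 2.34 in 9-month D2-Gpnmb+, 6.35 ± 1.18 in 4-month DBA/2J and 6.77 ± 2.01 in 4-month D2-Gpnmb+. It rose by 0.48 ± 0.14 with age in DBA/2J (adjusted p = 0.0118), and 19 of 25 libraries of 9 months lay above the 4-month maximum of 8.38.

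Block 2 carried most of both differences. Atf4 averaged 78.3 ± 15.8 in block 1, 117 ± 31.8 in block 2 and had 60.2, 65.8 and 82.6 in the block 3 libraries of 9-month DBA/2J; Ddit3 averaged 7.42 ± 1.65 in block 1, 10.6 ± 1.85 in block 2 and had 4.64, 6.68 and 9.89 in block 3. Within block 3 the age value in DBA/2J was 0.16 ± 0.12 for Atf4 (adjusted p = 0.701) and 0.10 ± 0.21 for Ddit3 (adjusted p = 0.921), with overlapping ranges for both. The 13 summed rod markers moved with block as well, at 3355 to 73163 (median 23957) in block 2 and 6040 to 7723 in block 3 of 9-month DBA/2J, and Atf4 correlated with them across the 61 libraries after removal of group and block means (r = 0.60). The part of rod RNA in the result was not tested.

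In D2-Gpnmb+, Atf4 had 52.9, 55.7 and 64.4 at 9 months within block 3, all below the 67.3 to 83.4 (median 73.4) at 4 months, a difference of -0.35 ± 0.12 (adjusted p = 0.948). Over all libraries of that strain the age values were 0.05 ± 0.13 for Atf4 and 0.20 ± 0.21 for Ddit3. The strains' age values differed by 0.60 ± 0.21 for Atf4 when all libraries were used (adjusted p = 0.173), and in block 3 by 0.51 ± 0.16 (adjusted p = 0.349). At 4 months 8 of 10 DBA/2J libraries had less Atf4 than the lowest D2-Gpnmb+ library, a difference of -0.25 ± 0.07 (adjusted p = 0.136), while Ddit3 gave -0.04 ± 0.17 (adjusted p = 0.952).

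Counted together, 5 of 7 members passed for age in DBA/2J over all libraries, with 3 higher (Atf3, Atf4, Ddit3) and 2 lower (Mapk8, Mapk10), against 22.4% of all genes tested; each of the 5 passed in 35 of 35 fits that left out 1 library. With block as a covariate 0 of 7 passed, against 0.0589% of genes called. At an unadjusted p under 0.05 that fit had 1 member and 675 of 13587 genes. Within block 3 only Atf3 passed, against 0.263% of genes (2 members and 1465 of 13670 genes unadjusted). All 4-month libraries are in block 3, so the covariate fit has the block 3 fold changes and is no separate check of them. In D2-Gpnmb+ 0 of 6 members passed in limma over all libraries, against 0.0232% of genes. At an unadjusted p under 0.05 there were 3 members and 3917 of 12910 genes. In edgeR on the recovered reads 1 passed, Jun (log2 fold change 1.44, adjusted p = 0.018), where 11.6% of genes were called. Within block 3, 0 of 7 passed (1 unadjusted) and 0% of genes (640 of 13689 unadjusted). The difference of the age values between strains passed for 0 of 7 members in limma and in edgeR, against 0.375% of genes in limma. Unadjusted, limma had 2 members and 1820 of 14150 genes. Within block 3 it passed for 0 members, against 0.0774% of genes (4 members and 1179 of 14219 genes unadjusted).

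Between strains at 9 months, 0 of 7 members passed in limma and in edgeR over all libraries, against 0.0218% of genes in limma. At an unadjusted p under 0.05 limma had 3 members and 1812 of 13755 genes. In block 1, 2 of 7 passed, both lower in DBA/2J, against 12.3% of genes; beside Jun this was Mapk10, at 80.2 ± 16.99 in DBA/2J (n = 6) and 121 ± 15.1 in D2-Gpnmb+ (n = 4), which fell by 0.62 ± 0.18 (adjusted p = 0.0279). The rod and cone sums differed between the same libraries, with the values given beside Jun. For DBA/2J the ganglion cell sum ran from 140 to 254, overlapping the 147 to 205 of D2-Gpnmb+. The bipolar cell sum overlapped too, at 2791 to 5110 against 3215 to 3799. The amacrine and horizontal cell sum was lower in every DBA/2J library (73.5 to 100) than in any of D2-Gpnmb+ (116 to 157). The part of these markers in the Mapk10 result was not tested. Within block 3, 0 passed (1 unadjusted) and 0% of genes (823 unadjusted). At 4 months 0 of 7 passed in limma and in edgeR, against 0.25% of genes in limma. Unadjusted, limma had 3 members and 1726 of 12804 genes.

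**Figure D3:**
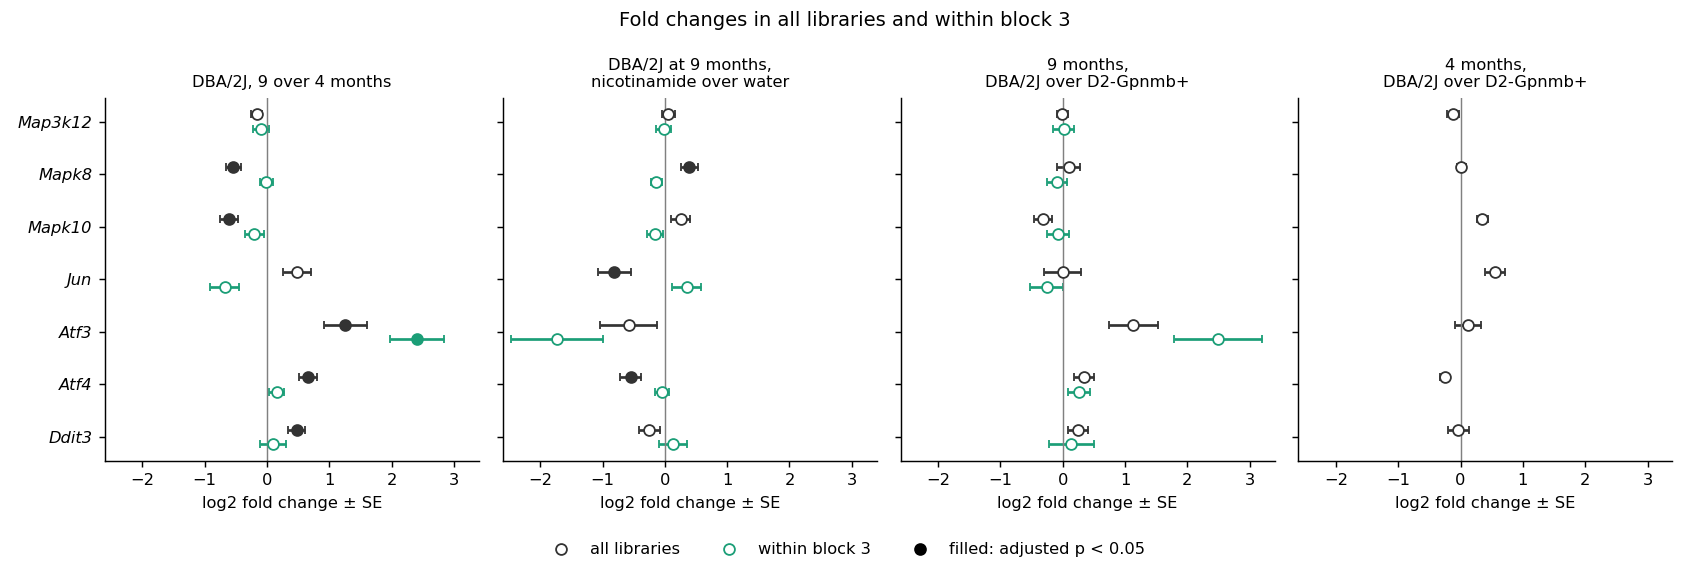
Log2 fold change ± SE of each member for age in DBA/2J, nicotinamide, strain at 9 months and strain at 4 months, over all libraries and within block 3; filled symbols have an adjusted p under 0.05. For age in DBA/2J, Atf3 alone is filled within block 3 (2.40), where Mapk8 and Mapk10 sit at -0.01 and -0.20.

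Nicotinamide-treated DBA/2J mice were compared with water-treated DBA/2J mice of the same age. Over all libraries Mapk8 rose by 0.40 ± 0.14 (adjusted p = 0.0482), Jun fell by 0.81 ± 0.27 (adjusted p = 0.0376) and Atf4 fell by 0.54 ± 0.17 (adjusted p = 0.0257), so 3 of 7 members passed against 15.1% of genes. Jun had 7.62 to 16.3 (median 14.2) after nicotinamide and 6.98 to 52.4 (median 26.7) on water; the nicotinamide range lies inside the water range. Mapk8 had 144 to 161 (median 148) after nicotinamide and 61.6 to 177 (median 114) on water, and Atf4 61.1 to 74.2 (median 66.5) against 58.6 to 187 (median 96.3). For these genes too every nicotinamide library fell inside the water range.

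Within block 3 none of these held, and Mapk8 and Jun had the opposite sign. There Mapk8 gave -0.14 ± 0.09 (adjusted p = 0.452), Jun 0.35 ± 0.23 (adjusted p = 0.479) and Atf4 -0.05 ± 0.11 (adjusted p = 0.866) between 7 nicotinamide and 3 water libraries. In that block 0 of 7 members and 0.00749% of genes passed. At an unadjusted p under 0.05 there were 1 member, Atf3, and 2242 of 13352 genes. With block as a covariate 0 of 7 members (1 unadjusted) and 0% of genes (736 of 13925 unadjusted) passed. All nicotinamide libraries are in block 3, so that fit has the block 3 fold changes and is no separate check of them. Leaving out 1 library at a time over all libraries, Mapk8 passed in 12 of 32 fits, Jun in 27 and Atf4 in 28. Jun missed the threshold without nicotinamide library 1, 3, 4, 5 or 7 (adjusted p = 0.107, 0.0548, 0.0736, 0.0871 and 0.0617), and Atf4 without nicotinamide library 1, 2, 4 or 7 (adjusted p = 0.0563, 0.0516, 0.0504 and 0.0609). The Müller glia and astrocyte sum was 1433 to 2872 after nicotinamide and 383 to 8961 on water. The 12 summed amacrine and horizontal cell markers in the table (of 14 listed) had 220 to 1220 (median 723) against 49.9 to 528 (median 100). The ganglion cell sum was 390 to 599 after nicotinamide and 140 to 479 on water. The rod sum was 7695 to 17583 after nicotinamide and 3355 to 73163 on water. The part of these markers in the nicotinamide results was not tested.

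Atf3 did not pass for nicotinamide. Its difference was -0.58 ± 0.45 with all libraries (adjusted p = 0.392), and in block 3 it was -1.73 ± 0.73 (adjusted p = 0.269), where 6 of 7 nicotinamide libraries had 0.867 to 2.28, below the lowest water library at 2.32, and nicotinamide library 2 had 15.6. Without nicotinamide library 2 the pooled value was -0.98 (adjusted p = 0.145), and leaving out 1 of the 3 water libraries of block 3 gave -0.99 (without library 26) to -2.57 (without library 27), none past the threshold. Mapk10 was 0.25 ± 0.16 over all libraries (adjusted p = 0.283) and -0.16 ± 0.13 within block 3, and Ddit3 was -0.25 ± 0.17 (adjusted p = 0.314) and 0.13 ± 0.23.

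Set against 4-month DBA/2J, also in block 3, the nicotinamide libraries gave 0 of 7 members past the threshold in limma and in edgeR. In limma 1.54% of genes passed, and 1 member and 1943 of 13024 genes had an unadjusted p under 0.05. Mapk10 came nearest, at 110 to 150 (median 118) after nicotinamide and 125 to 213 (median 159) at 4 months, a difference of -0.36 ± 0.10 (adjusted p = 0.0658). Jun gave -0.33 ± 0.18 (adjusted p = 0.41), Atf3 0.67 ± 0.33 (adjusted p = 0.344; 0.28 without nicotinamide library 2, adjusted p = 0.599), Atf4 0.11 ± 0.08 (adjusted p = 0.547) and Ddit3 0.23 ± 0.14 (adjusted p = 0.47).

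The rest of the pathway was described through 8 lists, by counts and medians of the log2 fold change. For age in DBA/2J over all libraries, 1257 genes rose and 1787 fell, with a median of 0.02 over all genes tested. Of 22 kinases and scaffolds of the JNK cascade, 0 rose and 2 fell, which were Mapk8 and Mapk10 (median -0.02). Of 5 phosphatases that act on JNK, Dusp1 rose (0.49, adjusted p = 0.0461) and Dusp8 fell (-0.42, adjusted p = 0.0118).

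The list of AP-1 and JNK-responsive factors had 4 of 13 tested genes higher and 2 lower with age in DBA/2J (median 0.33). Beside Atf3 the higher ones were Fosb (1.97 ± 0.33, adjusted p = 0.000162), Junb (1.05 ± 0.25, adjusted p = 0.00301) and Fos (1.02 ± 0.23, adjusted p = 0.00218), which encode AP-1 subunits induced quickly by cell activity and stress. Sox11, a factor of the injury response, fell by 1.03 ± 0.29 (adjusted p = 0.0091) and Atf2, a JNK substrate, by 0.49 ± 0.12 (adjusted p = 0.00324). The immediate early genes had 9 of 11 higher and 0 lower (median 0.88); this list shares Fosb, Fos and Junb with the AP-1 list.

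Of the integrated stress response genes, 7 of 24 rose and 0 fell with age in DBA/2J (median 0.12). The largest was Nupr1, a stress-induced chromatin protein gene, at 5.51 ± 3.72 in 9-month DBA/2J and 1.27 ± 0.80 in 4-month DBA/2J (log2 fold change 1.34 ± 0.29, adjusted p = 0.00113). Atf5 (0.73, adjusted p = 0.0105), Atf4 itself and the serine synthesis gene Phgdh (0.63, adjusted p = 0.0353) followed. Of 12 unfolded protein response genes 3 rose (Pdia4, Xbp1 and Hyou1) and Atf6 fell (median 0.31). Of 9 axon injury and regeneration genes 2 rose, the STAT3 inhibitor gene Socs3 (1.06, adjusted p = 0.00607) and Tnfrsf12a (0.87, adjusted p = 0.0015), and 2 fell, Cacna2d1 (-1.26, adjusted p = 0.000286) and Sox11 (median -0.13). Neither of the 2 BH3-only genes tested passed.

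Within block 3, Atf3 was the only gene of the 8 lists that passed for age in DBA/2J. The list medians there lay between -0.14 (BH3-only genes) and 0.58 (immediate early genes), beside -0.00 over all genes, of which 30 rose and 6 fell. Junb had 1.06 (adjusted p = 0.245), Socs3 1.99 (adjusted p = 0.136), Fosb 0.70 (adjusted p = 0.503) and Nupr1 0.44 (adjusted p = 0.705).

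**Figure D4:**
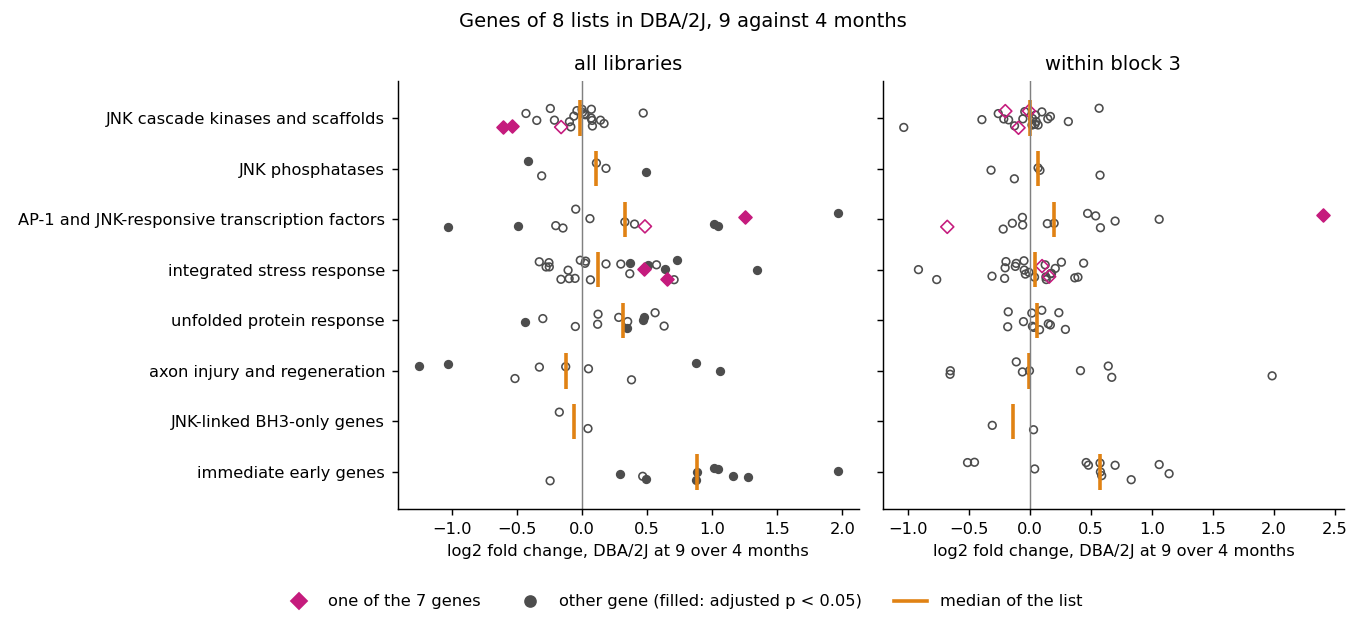
Log2 fold change for age in DBA/2J of each gene of 8 lists (points), with the list median as a line, over all libraries and within block 3. The immediate early genes have medians of 0.88 and 0.58, and the JNK cascade has -0.02 and 0.00.

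For nicotinamide over all libraries, 1362 genes rose and 743 fell (median of all genes tested -0.03); this comparison shares its 25 water libraries with the age comparison. In the JNK cascade 2 of 22 rose, the scaffold gene Mapk8ip2 (0.68 ± 0.22, adjusted p = 0.0305) and Mapk8, and Dusp1 (-0.84, adjusted p = 0.00447) and Dusp16 (-0.42, adjusted p = 0.0336) fell among 5 phosphatases. Of 13 AP-1 and JNK-responsive factors Atf2 rose (0.41, adjusted p = 0.0414) and Fosb (-1.83, adjusted p = 0.00197), Fos (-1.41, adjusted p = 0.000446) and Jun fell. Of 24 integrated stress response genes 0 rose and 4 fell, with the serine synthesis genes Psat1 (-0.89, adjusted p = 0.0342) and Phgdh (-0.84, adjusted p = 0.0216) furthest.

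The other lists gave 0 higher and 2 lower (Xbp1 and Herpud1) of 12 unfolded protein response genes, 0 higher and 6 lower of 12 immediate early genes and 0 of 3 BH3-only genes. Of 9 axon injury genes, Cacna2d1 (1.53) and Stmn2 (1.23), which encodes a growth-associated tubulin-binding protein, rose and Hspb1 (-0.81) and Tnfrsf12a (-0.78) fell. Within block 3 0 of 92 list genes passed for nicotinamide in limma (13 at an unadjusted p under 0.05); Stmn2 had 1.36 (adjusted p = 0.0953) and Fos -0.97 (adjusted p = 0.240). Against 4-month DBA/2J, Nupr1 was the only list gene that passed (0.91 ± 0.21, adjusted p = 0.0342), at 3.27 ± 1.44 after nicotinamide. The lists hold 100 different genes of the table. Between strains limma and edgeR called 0 of 94 tested at 9 months (7 at an unadjusted p under 0.05 in limma) and 0 of 88 at 4 months (16 unadjusted), and 0 of 97 for the difference of the age values (8 unadjusted). For age in D2-Gpnmb+ limma called 0 of 89 (30 unadjusted, where 3917 of all 12910 genes were). There edgeR called 11 of the 89, beside 11.6% of all genes. These 11 include Jun, Fos, Fosb, Egr1 and Nupr1. Within block 3 limma called 0 of 93 (4 unadjusted, where 640 of 13689 genes were). Counts over all genes for the other comparisons are given with the members.

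Libraries of the same group and block still differed, and most member pairs correlated weakly across them. After the mean of each group within each block was removed, the pair with the largest correlation across 61 libraries was Mapk10 and Atf4 (r = -0.46; -0.66 over the 33 libraries of block 3). Jun and Atf3 gave 0.25 (-0.12 in block 3), Atf3 and Atf4 0.15 (0.33), Atf3 and Ddit3 0.23 (0.30), Atf4 and Ddit3 0.26 (0.32), and Map3k12 and Jun -0.31 (-0.49), with the block 3 value in parentheses. Among 9985 genes with a mean of at least 5, those most like Atf3 included A2m (r = 0.68), Serpina3n (0.66), Stat3 (0.65) and Sox30 (0.61); within block 3 they gave 0.69, 0.70, 0.71 and 0.69, and without the 2 libraries farthest in Atf3, 0.49, 0.48, 0.46 and 0.48.

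The genes most like Mapk10 were Celf4 (0.77), Dlg2 (0.75), Kcnj9 (0.75), Prune2 (0.74) and Car11 (0.71), and those most like Mapk8 included Mdga2 (0.73), Ppp3cb, Dzip3 and Zfp667 (0.64). Jun was nearest to Rprd1b (0.67), Hat1, Lsm4, Zfp36 and Tmed7 (0.56). Atf4 was nearest to Alpl (0.76), followed by the ribosomal protein genes Rps23 (0.76), Rpl12, Rpl10a and Rplp1 (0.71). Ddit3 (Acin1 0.51, then Rbm4, Rrp7a, Stip1 and Gdpd5) and Map3k12 (Rufy2 0.55, then Mbip, 4930447C04Rik, Map3k7 and Tmem181b-ps) had lower values. These libraries share scaling and cell mixture, and the genes were picked for their correlation, so the values are descriptive.

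**Figure D5:**
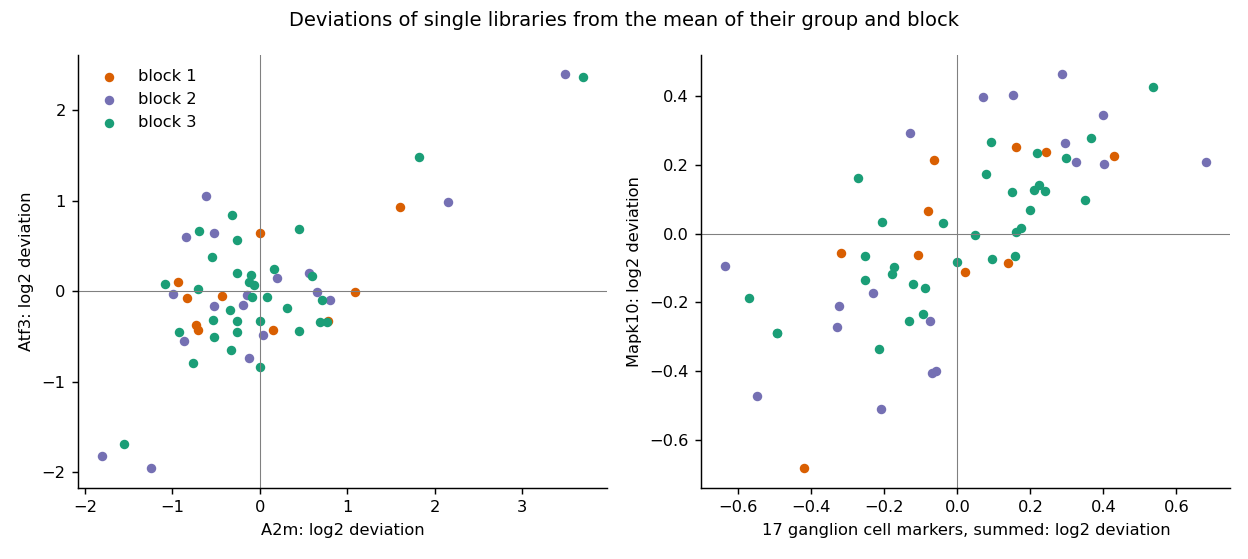
Deviation of each library from the mean of its group within its block, in log2 units, for Atf3 against A2m and for Mapk10 against the sum of 17 ganglion cell markers. Both panels slope upward (r = 0.68 and 0.71, n = 61).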

How the data were processed

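RNA-seq of sorted retinal cells was analysed from the table of 61 libraries that the authors deposited. Per the submitters' processing notes the tools were TopHat2 2.0.7, Bowtie2 2.0.6 and HTSeq with mm10; the scaling is not given in the sources used here. The deposited values are a signal, meaning gene reads divided by a size for each library: all values came out as whole reads within 0.05, and per-library sums ran from 717752 to 1560902. Columns name the group and a library number only. Of 15171 rows, 22 date-like names were left out, leaving 15149 genes; every gene listed had a read in at least 13 libraries.

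The test was limma 3.58.1 (R 4.3.3; trend and robust) on log2(value + 1), over genes at 1 or more in n libraries, n being the size of the smallest group, using only the groups compared, with Benjamini-Hochberg adjustment at 0.05 over all genes tested. edgeR 4.0.16 (quasi-likelihood, TMM) on the recovered reads was an alternative (3160 genes called for age in DBA/2J and 2275 for nicotinamide). The code was tested on simulated data. Other alternatives were another pseudocount (0.5), no filter, scaling to the total, block as a covariate, single blocks and leaving out each library; the blocks were divided by hand after the data were seen.

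Members and lists were chosen with earlier results of these data known. Every member is named in every comparison; of each list at most 4 genes that passed with the largest fold change are named, other named list genes having been chosen after their values were seen; and 5 genes per member with the highest Pearson r are named, except 2 that are not reported here. Promoters are RefSeq sequences (GRCm38.p6, 7 of 7 members matched) and gene positions are from GENCODE.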

Additional observations from a re-analysis of the deposited data

Results flagged for a closer look

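Of 28 pairs of member and group with 4 to 10 libraries, 3 had 1 library set apart from the rest by the gap between it and its nearest neighbour (Dixon test, 95% level), which chance alone gives in about 1 of 20 groups. Map3k12 had 67.1 in nicotinamide library 1, where the next highest of that group had 54.1. Jun had 32.1 in 4-month DBA/2J library 10, where the next had 19.6. Atf3 had 15.6 in nicotinamide library 2, where the next had 2.28.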

How the results depend on the processing

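No paired analysis was possible because the groups share no replicate numbers. The number of genes called depended on the setting in every comparison. Age in DBA/2J had 3044 called genes, 8 with block as a covariate and 36 within block 3; nicotinamide had 2105, then 0 and 1. Strain at 9 months had 3 called genes, 0 scaled to the total, 11 in edgeR, 1648 in block 1, 0 in block 2 and 0 in block 3; strain at 4 months had 32, and 20 scaled to the total. Age in D2-Gpnmb+ had 3, 0 scaled to the total, 1495 in edgeR, and 0 with the covariate and within block 3. The difference of age values had 53, 215 scaled to the total, 12 with the covariate and 11 within block 3. Leaving out 1 library gave 0 to 55 for strain at 9 months (0 to 38 in block 3), 6 to 92 for strain at 4 months, 2337 to 3450 for age in DBA/2J (6 to 255 in block 3), 0 to 2069 for age in D2-Gpnmb+ (0 in every block 3 fit), 9 to 239 for the difference of age values (4 to 116 in block 3), 1294 to 2540 for nicotinamide (0 to 378 in block 3) and 16 to 413 for nicotinamide against 4 months. For nicotinamide, Mapk8 (-0.14) and Jun (0.35) reversed within block 3, and the cause was not tested. The covariate fit gives these same values, since only block 3 holds nicotinamide libraries, so it is no separate check. Likewise, in both age comparisons the covariate fit has the block 3 fold changes, since only block 3 holds 4-month libraries. Scaling to the total moved the median of all genes by 0.23 for strain at 4 months, 0.32 for age in D2-Gpnmb+ and -0.32 for the difference of age values; there Mapk10 passed for the difference of age values (-1.04, adjusted p = 0.0213), and Jun missed the threshold for nicotinamide (-0.76, adjusted p = 0.0678). Mapk8 missed it for nicotinamide in edgeR (adjusted p = 0.0622) and without the filter (adjusted p = 0.0503). The share of calls that were higher moved, for strain at 4 months, to 95% scaled to the total, against 40.6%; for the difference of age values to 4.65% against 34.0%; and for nicotinamide to 78.4% scaled to the total and 45.3% in edgeR, against 64.7%. For age in edgeR it was 54.2% against 41.3% in DBA/2J and 88.4% against 33.3% in D2-Gpnmb+. Depth limits Atf3 most, at 1 to 19 reads a library in 4-month DBA/2J.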
